A study of Mus musculus with 4 samples.

Results

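The genes described here are markers of cells other than chondrocytes that a hand-cut piece of growth plate can hold: red cell precursors, neutrophils, macrophages and other leukocytes, osteoclasts, endothelial cells and pericytes, bone cells and early B cells. They were chosen by name, as the probe sets that the array annotation assigns to 1 of 34 listed gene symbols. The list was drawn up with earlier results of these data known, so its counts beside all genes are no independent support. Of the 34, 33 had a probe set that names the gene alone, with 51 probe sets between them, out of 18193 genes and 45101 probe sets in the table. Bglap is not analysed here, and a probe set that names Vpreb1 together with another gene was left out.

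The tissue was the proliferative zone of the growth plate, which holds the dividing chondrocytes of a growing long bone. It was cut by an 18 gauge needle from 40 µm frozen sections of the proximal tibia and distal femur of C57BL/6 mice, 7 days after birth. The labels give 50 ng as the input of RNA, which went through repeated rounds of amplification from oligo-dT primers before Affymetrix arrays. The 2 control samples are labelled wild-type. The 2 Ift88-deleted samples come from Col2aCre;Ift88fl/fl mice, in which floxed Ift88, a gene needed to build the primary cilium, is removed by a Cre named for the type II collagen gene that chondrocytes express. Whether the control mice carried the Cre or a floxed allele, and how many mice went into a sample, is not given in the sources used here. The design text names the samples of a group as biological replicates.

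A growth plate has almost no blood vessels of its own. Next to it lies the primary spongiosa, where capillaries and marrow enter, osteoclasts resorb the calcified cartilage and osteoblasts lay down bone. How near the needle cuts came to the primary spongiosa was not measured here. Red cell precursors make the hemoglobin and membrane skeleton of erythrocytes, neutrophils pack antimicrobial proteins into granules, and osteoclasts secrete acid and proteases, so each of these cells has transcripts that chondrocytes make little of.

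Values are log2 and relative to the median of the 4 arrays, probe set by probe set, so they show how arrays differ and give no level directly. A coarse class of each probe set's lowest value was inferred from number steps. The brightest class, from 8 up, held 37.25% of member probe sets (32.15% of all), and the dimmest of the members, from 2, held 15.69% (16.45%). Leaving out the dimmest kept only the classes from 4 and 8. The classes served only as alternatives. Whether a marker was present in all 4 samples, and whether the tissue as a whole carried the chondrocyte markers of its label, cannot be read from them. In these bulk samples fewer cells of a type and less RNA per cell cannot be told apart. The controls had high Xist (3.58 in control 1 and 3.74 in control 2) and the Ift88-deleted samples low Xist (-3.79 and -3.61), with Y-linked Eif2s3y the other way round, so sex by these genes and genotype cannot be told apart. The single probe set of Ift88 gave a log2 difference of 0.08 (SE 0.154). Where it lies in the gene was not analysed here. The SD over genes was 0.254 in control 1 and 0.149 to 0.187 in the other arrays. The difference between the 3′ and 5′ control probe sets of Gapdh, a sign of RNA quality, was -0.18 and 0.07 in controls 1 and 2, and -0.07 and -0.41 in Ift88-deleted samples 1 and 2. For Actb, the other such control, it was 0.10 and -0.05 in the controls and -0.10 and -0.14 in the Ift88-deleted samples. These measures thus ranked the arrays differently. Both come from values relative to each probe set's median, so they compare arrays and give no 3′ to 5′ ratio of any sample.

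Samples of the same group differed in these markers. Control 2 was above control 1 for 30 of the 33 genes (51.5% of all genes), and Ift88-deleted 2 above Ift88-deleted 1 for 23 (52.1%). Control 2 had the highest value of the 4 arrays for 24 of the 33 genes, where it had it for 27.6% of all genes, and control 1 for 1 member and 32.4% of all genes. It was highest for all 12 erythroid and neutrophil genes of the set. At least 1 log2 unit away from the median of the other 3 arrays lay 8 of the 33 genes in control 2 (0.55% of all genes), 5 in Ift88-deleted 1 (0.5%), 2 in control 1 (0.896%, of which 0.605% above and 0.291% below) and 2 in Ift88-deleted 2 (0.649%, of which 0.214% above and 0.434% below). Those calls fall on Hemgn, Slc4a1, S100a8, S100a9, Ngp, Mpo, Acp5 and Vwf, and Vwf is the exception in being low in control 2. The nearest gene short of that distance in control 2 was Camp (0.999) and the nearest beyond it Vwf (-1.02). With 1 array against 3, these departures have no test.

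**Figure D1:**
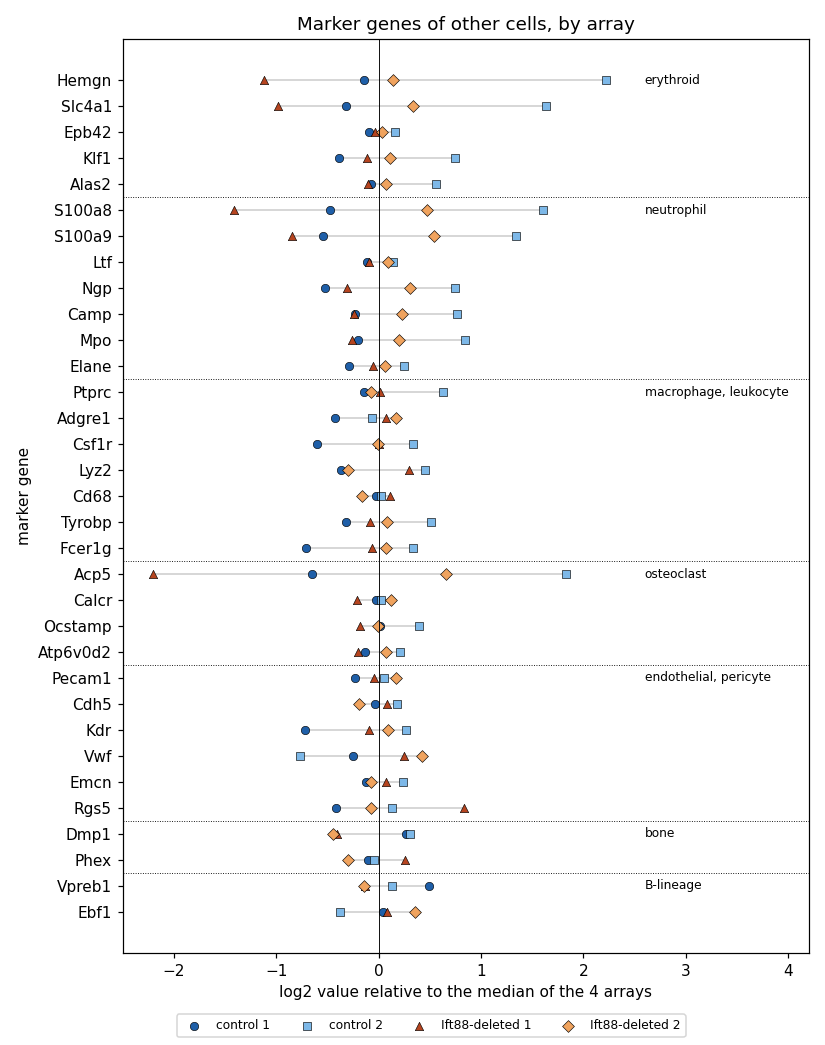
Each row is a marker gene and each point 1 array, placed on the x axis at its log2 distance from the 4-array median, with the grey line from the lowest to the highest array and dotted lines between cell classes. Control 2 is the rightmost point for 24 of the 33 genes, and Ift88-deleted 1 lies far to the left for Acp5 (-2.20), S100a8 (-1.41) and Hemgn (-1.12).

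None of the 33 genes passed an adjusted p of 0.05 between the groups in limma with Benjamini-Hochberg adjustment over all 18193 genes, where 0.011% of all genes did (0.0055% higher and 0.0055% lower). The smallest adjusted p was 0.321, for Dmp1. At an unadjusted p of 0.05 there were 3 members, Dmp1 and Vpreb1 lower and Vwf higher in the Ift88-deleted samples, where 5.96% of all genes passed (2.29% higher, 3.68% lower). The groups did not overlap for 6 members, 3 higher and 3 lower, against 33.3% of all genes (14.7% higher, 18.6% lower). The median difference, Ift88-deleted minus control, was -0.10 over the members and -0.01 over all genes, and 23 members lay below 0, as did 51.8% of all genes. An exact permutation test of 2 arrays against 2 cannot give a two-sided p under 0.333, so none is given.

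**Figure D2:**
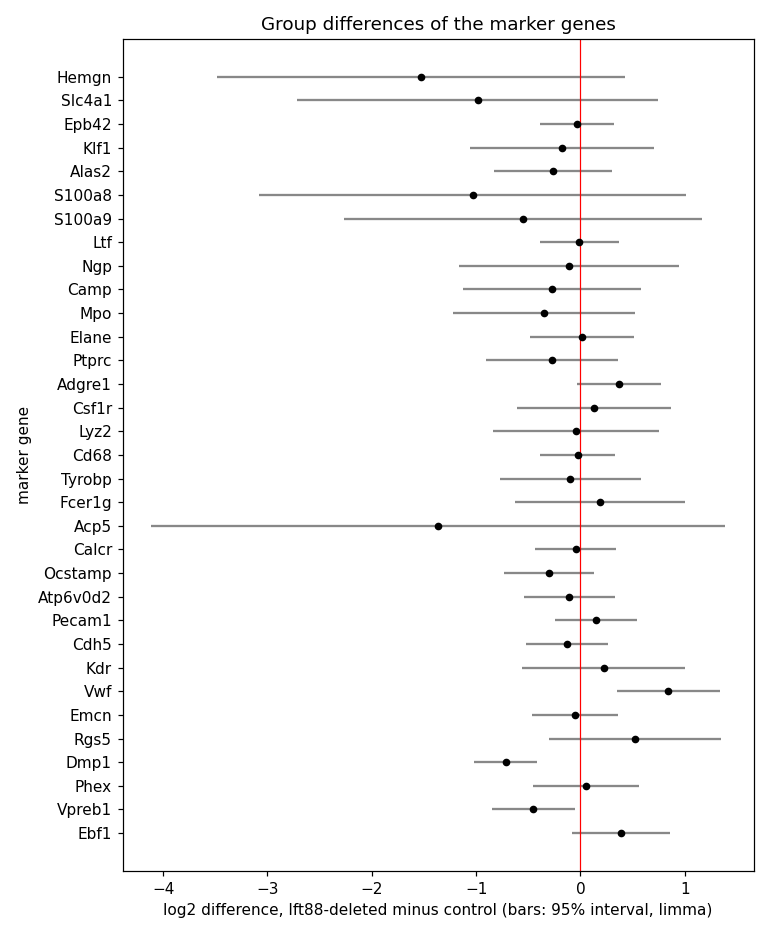
Points show the log2 difference between the group means (Ift88-deleted minus control) of each of the 33 marker genes, and bars its 95% interval from limma. The widest interval is that of Acp5, whose difference is -1.36, and the intervals of Dmp1 and Vpreb1 lie below 0 while that of Vwf lies above it.

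Red cell precursor genes were highest in control 2 in 5 of 5 cases. Hemgn, a nuclear protein of blood progenitors and erythroid cells, was at -0.14 and 2.23 in controls 1 and 2, and -1.12 and 0.14 in Ift88-deleted samples 1 and 2. Control 2 thus stood 5.16-fold above the other control, Ift88-deleted 2 stood 2.39-fold above the other Ift88-deleted sample, and the groups overlapped. Its difference between the groups was -1.53 (SE 0.794, 95% interval -3.49 to 0.42, adjusted p = 0.898). Without control replicate 2 it was -0.35, and without control replicate 1 it was -2.71.

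Slc4a1, the anion exchanger (band 3) of the red cell membrane, had the same order of arrays: -0.32 and 1.63 in controls 1 and 2, and -0.99 and 0.33 in Ift88-deleted samples 1 and 2. Ift88-deleted 2 lay above control 1, so the groups overlapped. That mean hides a disagreement among its 3 probe sets. A pair of them reached 2.31 and 2.58 in control 2, and the second of these was at -2.23 in Ift88-deleted 1, whereas the remaining probe set stayed between -0.08 and 0.04 in every array. The gene's difference of -0.98 (SE 0.702, adjusted p = 0.946) was -0.0052 without control replicate 2.

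The other 3 erythroid genes varied less, in the same array. Alas2, the erythroid enzyme that starts heme synthesis, was at -0.07 and 0.56 in controls 1 and 2, and -0.11 and 0.07 in Ift88-deleted samples 1 and 2. Control 2 alone was apart from a cluster of the other 3, and the difference of -0.26 (SE 0.228, adjusted p = 0.972) became 0.06 without control replicate 2. Alas2 lies on the X chromosome, for which the groups also differ in Xist, and the part of sex in its value was not tested. Klf1, the zinc finger factor that switches on globin and red cell membrane genes, was at -0.38 and 0.74 in controls 1 and 2, and -0.11 and 0.11 in Ift88-deleted samples 1 and 2. Epb42, a protein of the red cell membrane skeleton, ranged only from -0.09 in control 1 to 0.16 in control 2.

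Further red cell genes outside the set gave a smaller shift in the same array. Of 28 listed, 22 were measured, and 16 of them were highest in control 2 (27.6% of all genes) and 14 lowest in control 1 (34.2%). Their medians were -0.20 and 0.19 in controls 1 and 2, and -0.11 and 0.04 in Ift88-deleted samples 1 and 2. None passed the adjusted threshold between the groups, and the genes with unadjusted p under 0.05 and groups apart included Tal1, a blood progenitor transcription factor (-0.75, adjusted p = 0.820), and Rhd, the Rh blood group protein (-0.52, adjusted p = 0.647). Chosen after their values were seen, Car2, a carbonic anhydrase of both red cells and osteoclasts, was at 2.12 in control 2 and Ermap, a red cell adhesion protein, at 1.52, against -0.76 and -0.83 in Ift88-deleted 1. Others of the list were not high there: Hba-a1 was at 0.04 and Tspo2 at -0.05 in control 2, also named after their values were seen.

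Neutrophil genes were highest in control 2 in 7 of 7 cases. S100a8, a subunit of the calcium-binding protein calprotectin, was at -0.47 and 1.60 in controls 1 and 2, and -1.41 and 0.47 in Ift88-deleted samples 1 and 2. Its partner subunit S100a9 was at -0.55, 1.34, -0.85 and 0.55 in the same samples. Both genes had 1 high and 1 low sample in each group, and the groups overlapped in part, with control 2 above and Ift88-deleted 1 below all other samples. For S100a8 the 2 controls differed 4.22-fold and the 2 Ift88-deleted samples 3.69-fold, and for S100a9 3.69-fold and 2.63-fold. The difference between groups was -1.03 (SE 0.830, adjusted p = 0.956) for S100a8 and -0.55 (SE 0.697, adjusted p = 0.996) for S100a9. Leaving out control 2 gave 0.0063 and 0.39, and leaving out Ift88-deleted 1 gave -0.09 and 0.15.

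Granule protein genes had the same high sample with a narrower spread. Mpo, the myeloperoxidase of primary granules, was at -0.20 and 0.84 in controls 1 and 2, and -0.26 and 0.20 in Ift88-deleted samples 1 and 2, a difference of -0.35 (SE 0.355, adjusted p = 0.984) that turned to 0.17 without control replicate 2. Ngp, a granule protein of maturing neutrophils, was at -0.52, 0.74, -0.31 and 0.31, with a difference of -0.11 (SE 0.429, adjusted p = 1) that was 0.52 once control 2 was left out and 0.20 once Ift88-deleted 1 was. Camp, the cathelicidin antimicrobial peptide, was at -0.23, 0.77, -0.24 and 0.23 in the same order. In these 3 genes control 2 was alone at the top and Ift88-deleted 2 was second.

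Elane, neutrophil elastase, ranged from -0.29 in control 1 to 0.25 in control 2. Ltf, the iron-binding lactotransferrin of secondary granules, ranged from -0.11 in control 1 to 0.14 in control 2. The class median was -0.29 and 0.77 in controls 1 and 2, and -0.26 and 0.23 in Ift88-deleted samples 1 and 2. Its median difference of -0.27 had the opposite sign once control 2 (0.23) or Ift88-deleted 1 (0.07) was left out, and the erythroid median of -0.26 became 0.06 without control replicate 2. Of 18 measured further neutrophil genes, 9 were highest in control 2, where 27.6% of all genes were. Gfi1, a repressor needed for granulocyte development, was higher (0.51, adjusted p = 0.658) and Prtn3, proteinase 3, lower (-0.43, adjusted p = 0.727) in the Ift88-deleted samples by unadjusted p, and no gene passed after adjustment. Mmp9, gelatinase B, which osteoclasts also make, was at 2.46 in control 2 and -0.57 in Ift88-deleted 1 and was picked after its values were seen. Ctsg and Lcn2, picked in the same way, were at -0.05 and -0.0042 in control 2.

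The order control 2, Ift88-deleted 2, control 1, Ift88-deleted 1, from high to low, was found in 9 of the 33 genes and in 3.54% of all genes. These were Hemgn, Slc4a1, Alas2, S100a8, S100a9, Camp, Mpo, Acp5 and Atp6v0d2. Their start-site windows, 250 bases before to 50 after the transcription start in RefSeq on GRCm38.p6, are given here for those with the widest spread and a window in the table and for Alas2, with Klf1 beside them as the erythroid factor of the set. They read from 5′ to 3′ on the gene's strand, and capitals mark matches on either strand to AGATAA, a motif of the erythroid Gata family, CCACACC, a motif of Klf1, or GAGGAAG, a motif of PU.1.

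Hemgn, chr4:46404134-46404433, minus strand: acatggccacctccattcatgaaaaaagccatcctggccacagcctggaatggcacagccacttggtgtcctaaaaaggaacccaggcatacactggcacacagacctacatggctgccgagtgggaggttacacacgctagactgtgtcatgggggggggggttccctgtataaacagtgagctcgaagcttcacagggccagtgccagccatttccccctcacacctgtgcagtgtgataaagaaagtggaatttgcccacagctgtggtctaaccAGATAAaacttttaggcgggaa
Alas2, chrX:150547167-150547466, plus strand: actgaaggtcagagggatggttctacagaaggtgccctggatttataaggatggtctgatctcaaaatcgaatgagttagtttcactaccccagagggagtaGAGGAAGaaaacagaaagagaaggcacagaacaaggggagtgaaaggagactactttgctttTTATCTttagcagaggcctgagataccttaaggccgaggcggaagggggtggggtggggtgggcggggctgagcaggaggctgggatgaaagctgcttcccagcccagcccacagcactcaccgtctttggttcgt
Klf1, chr8:84901732-84902031, plus strand: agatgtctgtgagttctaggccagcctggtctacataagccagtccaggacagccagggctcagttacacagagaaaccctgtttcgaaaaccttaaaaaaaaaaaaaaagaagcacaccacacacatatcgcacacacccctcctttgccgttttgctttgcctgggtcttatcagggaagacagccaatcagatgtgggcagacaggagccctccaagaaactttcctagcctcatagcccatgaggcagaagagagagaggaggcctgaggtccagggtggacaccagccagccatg
S100a8, chr3:90668821-90669120, plus strand: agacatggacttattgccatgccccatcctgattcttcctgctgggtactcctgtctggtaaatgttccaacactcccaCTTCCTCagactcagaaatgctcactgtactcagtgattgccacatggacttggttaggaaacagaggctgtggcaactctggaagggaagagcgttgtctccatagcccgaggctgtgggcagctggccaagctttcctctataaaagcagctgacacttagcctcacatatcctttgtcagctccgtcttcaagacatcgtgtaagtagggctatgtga
S100a9, chr3:90695672-90695971, minus strand: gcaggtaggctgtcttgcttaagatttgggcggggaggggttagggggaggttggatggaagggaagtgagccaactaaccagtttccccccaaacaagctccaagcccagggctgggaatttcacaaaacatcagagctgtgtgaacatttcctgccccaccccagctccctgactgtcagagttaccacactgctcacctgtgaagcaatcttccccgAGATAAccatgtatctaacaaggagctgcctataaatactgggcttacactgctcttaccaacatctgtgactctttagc
Acp5, first of its 3 windows, chr9:22135697-22135996, minus strand: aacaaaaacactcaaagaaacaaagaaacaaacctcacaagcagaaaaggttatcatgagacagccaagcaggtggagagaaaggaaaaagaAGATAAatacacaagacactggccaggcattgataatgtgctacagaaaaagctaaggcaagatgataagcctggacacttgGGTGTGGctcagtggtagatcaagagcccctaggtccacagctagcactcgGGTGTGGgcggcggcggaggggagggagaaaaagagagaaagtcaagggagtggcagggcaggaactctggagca

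Windows were found for 24 of the 33 members, and Slc4a1 has none in the table. AGATAA was present in 3 of the 4 erythroid members with a window (Hemgn, Epb42 and Alas2) and in 11.2% of all 32851 windows. Outside that class it was in S100a9, Ltf, Rgs5, the second window of Ptprc and the first window of Acp5, which makes 8 of the 24 members. CCACACC was present in 0 of the 4 erythroid members and in 3 of the 24 members (Camp, the second window of Ebf1 and the first window of Acp5). It was in 7.58% of all windows. GAGGAAG was present in 3 of 7 neutrophil members (S100a8, Mpo and Elane), in 0 of the 4 macrophage and leukocyte members and 0 of the 2 osteoclast members with a window, and in 13.6% of all windows. It was also in Alas2, Vpreb1 and the second window of Dmp1, which makes 6 of the 24. A member with several windows counts if any of them matches, whereas the shares are per single window, so counts and shares are not on the same footing. Such hits are matches of letters and say nothing of binding.

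**Figure D3:**
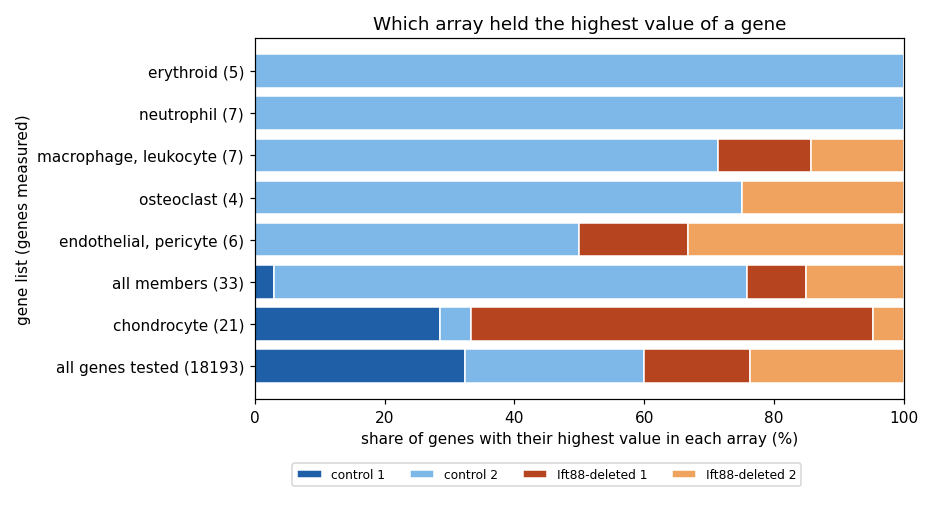
Each bar divides the genes of a list by the array in which the gene had its highest value, as a share in percent on the x axis, with the number of genes measured in brackets. Control 2 fills the bars of the 5 erythroid and 7 neutrophil genes and 27.6% of all genes, while it was highest for 1 of 21 chondrocyte genes.

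Among osteoclast genes, Acp5 had the widest spread of the whole set. Acp5, tartrate-resistant acid phosphatase, the classical osteoclast enzyme, was at -0.65 and 1.83 in controls 1 and 2, and -2.20 and 0.65 in Ift88-deleted samples 1 and 2, a 16.4-fold range. Each group thus held a high and a low sample, 5.61-fold apart in the controls and 7.23-fold apart in the Ift88-deleted samples. The difference between the groups was -1.36 (SE 1.115, 95% interval -4.11 to 1.38, adjusted p = 0.960), and it was 0.063 once Ift88-deleted 1 was left out, -0.12 once control 2 was, and -2.61 to -2.79 once either other array was.

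The other osteoclast genes differed little between arrays. Ocstamp, a membrane protein of osteoclast fusion, was at 0.01 and 0.40 in controls 1 and 2, and -0.18 and -0.01 in Ift88-deleted samples 1 and 2. Its groups did not overlap, by a margin far smaller than the distance between the 2 controls, and its difference was -0.30 (SE 0.174, adjusted p = 0.916). Atp6v0d2, an osteoclast subunit of the proton pump, ranged from -0.20 in Ift88-deleted 1 to 0.21 in control 2. Calcr, the calcitonin receptor, ranged from -0.21 in Ift88-deleted 1 to 0.12 in Ift88-deleted 2. Ift88-deleted 1 was the lowest array for all 4 osteoclast genes, and for 19.4% of all genes.

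Of 13 measured further osteoclast genes 8 were highest in control 2, where 27.6% of all genes were. Their medians were -0.05, 0.10, -0.06 and 0.01 in control 1, control 2, Ift88-deleted 1 and Ift88-deleted 2. Ctsk, the collagen-degrading cathepsin K, was at 1.56 in control 2 and between -0.30 and 0.21 in the others, and was singled out after its values were seen. Tcirg1 and Itgb3, singled out in the same way, were at 0.06 and 0.04 in control 2. Snx10, a sorting nexin needed for acid secretion, was lower in both Ift88-deleted samples (-0.43, adjusted p = 0.830) and did not pass.

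Among macrophage and leukocyte genes the controls lay at the ends, with class medians of -0.37 in control 1 and 0.34 in control 2. Control 1 was the lowest array for 6 of the 7 genes (34.2% of all genes) and control 2 the highest for 5 (27.6%). No gene of this class reached 1 log2 unit from the median of the other 3 arrays. Lyz2, the lysozyme of macrophages and neutrophils, was at -0.37 and 0.45 in controls 1 and 2, and 0.30 and -0.30 in Ift88-deleted samples 1 and 2. One high and one low value in each group gave a difference of -0.04 (SE 0.322, adjusted p = 1), which turned to 0.37 once control 2 was left out and to 0.26 once Ift88-deleted 2 was.

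The Fc and activating receptor adaptors behaved alike. Tyrobp was at -0.32 and 0.51 in controls 1 and 2, and -0.08 and 0.08 in Ift88-deleted samples 1 and 2. Fcer1g was at -0.71, 0.33, -0.07 and 0.07, so both Ift88-deleted values lay between the controls in either gene. Csf1r, the receptor for the macrophage growth factor M-CSF, was at -0.60, 0.34, 0.01 and -0.01 as a mean of 3 probe sets, of which the widest went down to -1.19 in control 1 and the narrowest stayed between -0.06 and 0.06.

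Ptprc, the pan-leukocyte phosphatase CD45, was at -0.14, 0.63, 0.01 and -0.07 in control 1, control 2, Ift88-deleted 1 and Ift88-deleted 2. One of its probe sets reached 1.26 in control 2, and the other was at 0.0038 there. Cd68, a lysosomal glycoprotein of macrophages, ranged from -0.16 in Ift88-deleted 2 to 0.11 in Ift88-deleted 1. Adgre1, an adhesion receptor of tissue macrophages, was at -0.43 and -0.07 in controls 1 and 2, and 0.07 and 0.17 in Ift88-deleted samples 1 and 2. It is the member of this class with groups that did not overlap, and its difference was 0.37 (SE 0.164, adjusted p = 0.854), or 0.19 without control replicate 1.

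All 26 further macrophage and leukocyte genes were measured, with a median difference of 0.06 and none past the adjusted threshold. By unadjusted p with groups apart, H2-Aa, a class II antigen presentation chain, was higher in the Ift88-deleted samples (1.22, SE 0.141, adjusted p = 0.154), and Lsp1, a leukocyte actin-binding protein (-2.40, SE 0.171, adjusted p = 0.0615), and Lcp1, the leukocyte actin bundler plastin (-0.44, adjusted p = 0.708), were lower. The partner chain of H2-Aa, H2-Ab1, was lower (-0.41, unadjusted p = 0.0340, adjusted p = 0.818 in limma) with groups apart, and the class II genes H2-Eb1 and Cd74 had overlapping groups, all 3 named after their values were seen. Of the 7 members of the class, Adgre1 had groups apart and the other 6 overlapped, where 33.3% of all genes had groups apart.

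**Figure D4:**
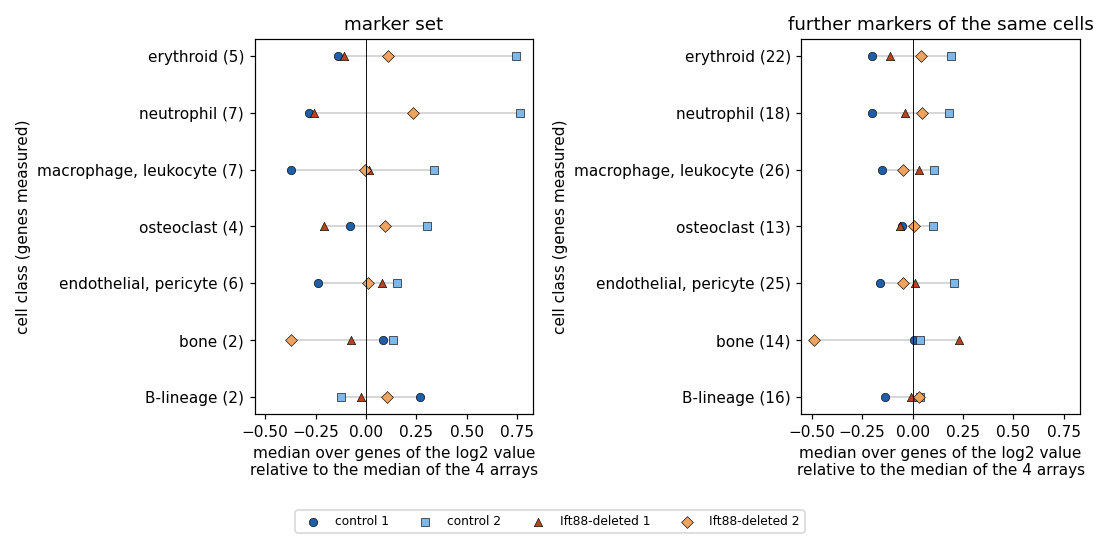
Points are medians over the genes of a cell class in each array, on the log2 scale as distances from the 4-array median, for the marker set (left) and for further markers of the same cells (right), with the number of genes measured in brackets. Control 2 reaches 0.74 for the 5 erythroid and 0.77 for the 7 neutrophil genes of the set and 0.19 and 0.18 for the 22 and 18 further genes.

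Among the 6 endothelial and pericyte genes control 2 was the highest array for 3 (27.6% of all genes), and none reached 1 log2 unit above the median of the other arrays there. Pecam1, the junction protein CD31, was at -0.23 and 0.05 in controls 1 and 2, and -0.05 and 0.17 in Ift88-deleted samples 1 and 2, with a difference of 0.15 (SE 0.159, adjusted p = 0.986) that was 0.01 without control replicate 1. Cdh5, vascular endothelial cadherin, ranged from -0.19 in Ift88-deleted 2 to 0.18 in control 2, and Emcn, the sialomucin endomucin of bone capillaries, from -0.13 in control 1 to 0.23 in control 2. Kdr, the main receptor for VEGF, was at -0.72 and 0.27 in controls 1 and 2, and -0.09 and 0.09 in Ift88-deleted samples 1 and 2. Control 1 was lowest for 4 of the 6 genes of this class and for 34.2% of all genes.

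Vwf, the von Willebrand factor of endothelial cells and platelets, took the opposite course. It was at -0.25 and -0.77 in controls 1 and 2, and 0.25 and 0.42 in Ift88-deleted samples 1 and 2. Both Ift88-deleted values lay above both controls, and control 2, the high sample for erythroid and neutrophil genes, was the lowest. The difference of 0.84 (SE 0.201, 95% interval 0.35 to 1.34) had an unadjusted p of 0.00605 and an adjusted p of 0.583 in limma, and was 0.58 without control replicate 2.

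Rgs5, a regulator of G protein signalling found in pericytes, was at -0.42 and 0.13 in controls 1 and 2, and 0.83 and -0.08 in Ift88-deleted samples 1 and 2 as a mean of 4 probe sets. The widest probe set was at 3.10 in Ift88-deleted 1 and at most 0.24 elsewhere, while the other 3 probe sets were between 0.04 and 0.13 in that sample. The further list of 25 vessel genes had its highest value in control 2 for 20 genes (27.6% of all genes) and its lowest in control 1 for 17 (34.2%). By the size of a single array's departure its leading genes were Pdgfrb, the PDGF receptor of pericytes and fibroblasts, at -0.86 in control 1, and Plvap, a protein of fenestrated capillaries, at 0.80 in control 2. The median difference of the 6 members was 0.19 with all arrays, -0.11 once control 1 was left out and 0.44 once control 2 was.

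**Figure D5:**
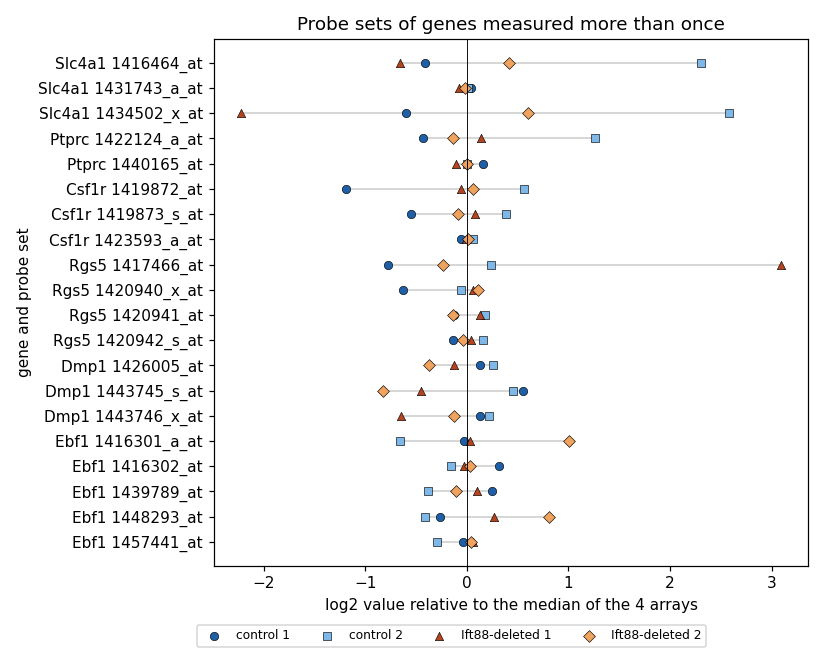
Each row is a probe set of a gene measured by several, and each point 1 array at its log2 value relative to the median of the 4 arrays. The probe sets of Slc4a1 and Rgs5 disagree (2.58 and 0.01 in control 2 for Slc4a1, 3.10 and 0.04 in Ift88-deleted 1 for Rgs5), and those of Dmp1 all place both Ift88-deleted samples below both controls.

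Of the 2 bone cell genes, Dmp1 had the smallest p of the set. Dmp1, the mineral-nucleating matrix protein of osteocytes and mature osteoblasts, was at 0.27 and 0.31 in controls 1 and 2, and -0.41 and -0.44 in Ift88-deleted samples 1 and 2. As means of 3 probe sets the samples of a group lay within 0.04 of each other, and the groups were 1.64-fold apart. By probe set the Ift88-deleted samples were farther apart and in no common order, at -0.13 and -0.37, -0.45 and -0.82, and -0.65 and -0.13 in samples 1 and 2. Its difference was -0.72 (SE 0.122, 95% interval -1.02 to -0.41, unadjusted p = 0.00122, adjusted p = 0.321), and leaving out each array in turn gave -0.70 to -0.74. The 3 probe sets gave -0.44, -1.14 and -0.56, each with groups apart, and 0 of them passed over all probe sets, where 0.0444% did. Dmp1 therefore did not share the split of the arrays seen in the erythroid and neutrophil genes, and did not pass the threshold over all genes.

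Phex, an osteoblast and osteocyte protease gene on the X chromosome, was at -0.10 and -0.04 in controls 1 and 2, and 0.26 and -0.30 in Ift88-deleted samples 1 and 2. Its groups overlapped. Of 14 measured further bone genes 8 were highest in Ift88-deleted 1 and 9 lowest in Ift88-deleted 2, against 16.3% and 25.0% of all genes, with medians of 0.01, 0.04, 0.23 and -0.49 in control 1, control 2, Ift88-deleted 1 and Ift88-deleted 2. By unadjusted p with groups apart, Omd, the bone keratan sulfate proteoglycan osteomodulin (-0.73), and Sp7, the osteoblast factor osterix (-0.54), were lower and Pdpn, the early osteocyte glycoprotein podoplanin (0.77), higher, and none passed after adjustment (adjusted p = 0.830, 0.820 and 0.820). Postn, the periosteal matrix protein periostin, was at 3.47 in Ift88-deleted 1 and between -1.14 and 0.65 in the others, and was singled out after its values were seen.

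Early B cell genes went in opposite directions. Vpreb1, part of the surrogate light chain of pre-B cells, was at 0.49 and 0.13 in controls 1 and 2, and -0.13 and -0.15 in Ift88-deleted samples 1 and 2. Both controls were above both Ift88-deleted samples, by a difference of -0.45 (SE 0.162, unadjusted p = 0.0327, adjusted p = 0.818 in limma) that was -0.27 without control replicate 1. Ebf1, a transcription factor of early B cells that marrow stromal and fat cells also make, was at 0.05 and -0.38 in controls 1 and 2, and 0.08 and 0.36 in Ift88-deleted samples 1 and 2. Its difference was 0.39 (SE 0.192, adjusted p = 0.885), or 0.17 without control replicate 2, and its 5 probe sets ranged from -0.08 to 0.88. Of 16 measured further B cell genes 0 passed either threshold, and the genes with the largest departures were Cd79a, with a value of -0.38 in control 1, and Pou2af1, with a value of 0.39 in Ift88-deleted 2. Control 2 was not the high sample for either member of this class.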

How the data were processed

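The authors deposited log2 values, made with RMA per the submitters' processing notes, and the base was inferred from number steps that are those of single-precision values between 2 and 16. In the deposited table every probe set's median over the 4 arrays is 0, a step that no source used here describes. Gene symbols came from the array annotation, updated by gene record from RefSeq GRCm38.p6 for 34741 of 34945 probe sets with a single symbol, and a gene's value is the mean over those probe sets. The 64 control probe sets were left out. Groups were compared in limma 3.58.1 (R 4.3.3, model on group, eBayes without trend, two-sided, Benjamini-Hochberg over 18193 genes). The script was tested on simulated data. A departure is an array's value minus the median of the other 3. Precision is limited by having 4 arrays. The p-values rest on the spread between 2 samples per group, moderated by limma toward the spread over all genes. The prior had 3.834 degrees of freedom beside 2 residual ones.

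The members and further lists were chosen with earlier results of these data known. Values by array were given for every member whose difference or single-array departure was at least 1 log2 unit and for S100a8, Alas2, Lyz2, Acp5, Pecam1, Dmp1 and Vpreb1, and added for others. Further lists were named by at most 2 genes per direction with an unadjusted p under 0.05 and groups apart, or else by departure. Alternatives were other normalizations, probe set choices, thresholds, no moderation, a replicate block and leaving out each array.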

Additional observations from a re-analysis of the deposited data

How the results depend on the processing

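No member passed an adjusted p of 0.05 under these alternatives: renewed quantile normalization, subtraction of array medians, probe sets by themselves or with plain names, brightest class only, dimmest class left out, no moderation, a threshold of 0.1, the replicate block, and leaving out each array. Members with an unadjusted p under 0.05 numbered 3, and 1 without moderation and 9 with the replicate block. With each probe set by itself 6 probe sets had such a p. The count of members also moved in most fits that left out an array. It is not given for those fits, because a group then holds 1 sample. The shares of all genes or probe sets under these alternatives were not counted, so the counts show nothing particular to the markers. The replicate numbers are shared by the labels only: over genes the differences between replicates 1 and 2 of the groups correlated at 0.139, from 2 pairs, and the block changed no adjusted call. Of 175 alternative differences over 16 members 11 changed sign. Many of the 175 could not: leaving out moderation or adding the replicate block keeps the difference itself, and probe set choices often repeat it for genes with 1 probe set. All changes but that of 1 Ebf1 probe set came from leaving out an array. Leaving out each array gave -0.58 to 0.055 for Alas2, -2.07 to 0.0063 for S100a8, -1.49 to 0.39 for S100a9, -0.74 to 0.52 for Ngp, -0.87 to 0.17 for Mpo, -0.45 to 0.37 for Lyz2 and -2.79 to 0.063 for Acp5. The sign turned without control 2 for all of these but Acp5, without Ift88-deleted 1 for S100a9 (0.15), Ngp (0.20) and Acp5, and without Ift88-deleted 2 for Lyz2 (0.26). A single probe set of Ebf1 gave -0.079. The cause was not tested. Leaving out each array gave median differences of -0.74 to 0.055 for erythroid, -0.77 to 0.23 for neutrophil, -0.34 to 0.37 for macrophage and leukocyte, -0.39 to 0.046 for osteoclast and -0.11 to 0.44 for endothelial and pericyte genes. At a departure of 0.5 the genes called were 13 and 15 in controls 1 and 2, and 9 and 8 in Ift88-deleted samples 1 and 2. By probe set, at a departure of 1, 6 and 10 were called in controls 1 and 2, and 7 and 6 in Ift88-deleted samples 1 and 2. The shares of all genes at 0.5 and of all probe sets were not counted, so these counts have no background beside them. Chosen after seeing the data was the count of members highest in an array: leaving out 1 other array it was 25 to 27 for control 2 (24 with all), 1 to 3 for control 1, 3 to 8 for Ift88-deleted 1 and 5 to 22 for Ift88-deleted 2, the last without control replicate 2. Signal over background was not used, so dim markers cannot be told from absent ones.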

Other observations

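Muscle, fat, platelet and cartilage genes are given here as markers of further tissues. Of 15 muscle genes 13 had a difference below 0, as did 51.8% of all genes, and none passed the adjusted threshold. The groups were apart for 6 lower and 1 higher, against 18.6% and 14.7% of all genes. Ckm (-0.08), Mb (-0.0015) and Ttn (0.04), named after their values were seen, had overlapping groups. Tnni2, fast skeletal troponin I, was at 1.05 and 0.88 in controls 1 and 2, and -0.86 and -1.14 in Ift88-deleted samples 1 and 2 (difference -1.96, SE 0.155, adjusted p = 0.0673 in limma), and Tnnc2, fast troponin C, at 0.52, 0.50, -0.63 and -0.50 (-1.08, SE 0.128, adjusted p = 0.161). Their groups did not overlap. The myosin heavy chain Myh1, picked after its values were seen, was at 1.02 in control 2 and between -0.10 and 0.05 in the others, also with groups that did not overlap. The 9 muscle genes that were highest in control 2 (27.6% of all genes) were joined by 5 that were highest in control 1 (32.4% of all genes).

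The 7 measured platelet genes and 6 measured fat genes showed no departure of 1 log2 unit in any array, with medians between -0.12 and 0.08 and between -0.09 and 0.07. Treml1, a platelet receptor, was at -0.43 and Gp5, a platelet glycoprotein, at -0.25 in control 1. Lipe, the hormone-sensitive lipase, and Retn, resistin, were both at -0.27 in control 1.

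Of the 21 chondrocyte genes 13 were highest in Ift88-deleted 1 and 11 lowest in Ift88-deleted 2, against 16.3% and 25.0% of all genes. Their medians were -0.01 in either control, and 0.10 and -0.06 in Ift88-deleted samples 1 and 2. By unadjusted p with groups apart Ucma, an upper-zone cartilage matrix protein, was higher (1.09, SE 0.216, adjusted p = 0.424) and Comp, a cartilage thrombospondin, lower (-0.54, SE 0.179, adjusted p = 0.807) in the Ift88-deleted samples, and neither passed. Prg4, the lubricin of joint surfaces, was at 7.52 in control 2 and between -0.19 and 0.01 in the other 3 arrays. The sample with the high erythroid and neutrophil markers and high Acp5 was thus also the one with high Prg4. The part of either in the other was not tested.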
